A study of Homo sapiens with 4 samples.

Results

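The 250 autosomal megabase bins in which H3K27ac peaks of the 697 cell line outnumbered those of the REH cell line most were described here. The genome (hg19) was divided into bins of 1000000 bp, each peak was placed in a bin by its midpoint, and the REH share of a bin was the number of REH peaks as a percent of the REH and 697 peaks in it. Of 2595 autosomal bins with at least 1 peak, 1635 held 20 or more peaks of both cell lines together, and the 250 of these with the lowest REH share are called 697-richest bins. They were compared with the other 1385 bins of at least 20 peaks. Because the peak counts of both cell lines chose the bins, all values of peak number, peak length, covered bases and overlap below are descriptions of the chosen bins and were not tested.

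H3K27ac was profiled by ChIP-seq in 1 library of REH and 1 library of 697. Both are established cell lines of B-cell precursor acute lymphoblastic leukemia (BCP-ALL), of which REH is positive and 697 negative for ETV6/RUNX1. Both lines were grown in the same medium, no drug or gene perturbation is given for either, and input DNA of each line served as its control. The lines come from different leukemias and can differ by more than ETV6/RUNX1, and each line stands alone for its group. With 1 library per line there was no replicate check, and differences between the cell lines and differences between the libraries cannot be told apart.

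Acetylation of lysine 27 on histone H3 is placed by the acetyltransferases CBP and p300 and marks nucleosomes beside active promoters and active enhancers. In B-cell precursors, enhancers often lie far from the promoter they act on, and several acetylated elements can stand close together along the chromatin around a gene that is strongly used in that cell type. A megabase commonly holds several genes with their distal elements, so a count of peaks per megabase describes a neighbourhood and not a single element. No gene annotation on hg19 was used here, so the regions are given by their coordinates and chromosome arms, and no gene was placed in them.

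The 697 list was the longer one, with 74504 peaks against 44626 in REH, at 68911420 and 65241657 ChIP tags after removal of duplicates. It also held more weak calls. Over the 1635 bins, 64.4% of the 697 peaks had a deposited q-value of at most 0.05, against 87.4% of the REH peaks. Pooled over all 1635 bins, REH contributed 36.1% of the peaks (95% Wilson interval 35.8 to 36.4), which is the level against which a low share has to be read. The intervals given here cover counting error only. Within the 697-richest bins the deposited pileup signal was hardly related to peak length (Spearman rho across peaks 0.049 in REH and 0.032 in 697), and across 2160 overlapping pairs of peaks it was hardly related between the lines (rho 0.028, against 0.429 for length). Peaks are not independent replicates. The −log10(q) values were hardly related to length either (rho 0.083 in REH and 0.078 in 697). The description therefore rests on peak positions and lengths.

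The 697-richest bins held 12232 peaks of 697 and 3193 peaks of REH, which is 16.7% of the autosomal 697 peaks and 7.33% of the autosomal REH peaks. Their pooled REH share was 20.7% (20.1 to 21.3), and that of the other bins was 38.6% (38.3 to 38.9). A 697-richest bin had a median of 44.5 peaks in 697 (lowest 15, highest 156) and of 11 peaks in REH (lowest 0, highest 50). The other bins had medians of 34 and 22. The number of peaks of both lines together was alike in both sets, with a median of 55.5 in the 697-richest bins and 56 in the others, so the low share went with more 697 peaks as well as with fewer REH peaks. REH had peaks in all but 1 of these bins. Of the 250 bins, 32 had fewer than 5 REH peaks, and 44 had 20 or more.

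**Figure D1:**
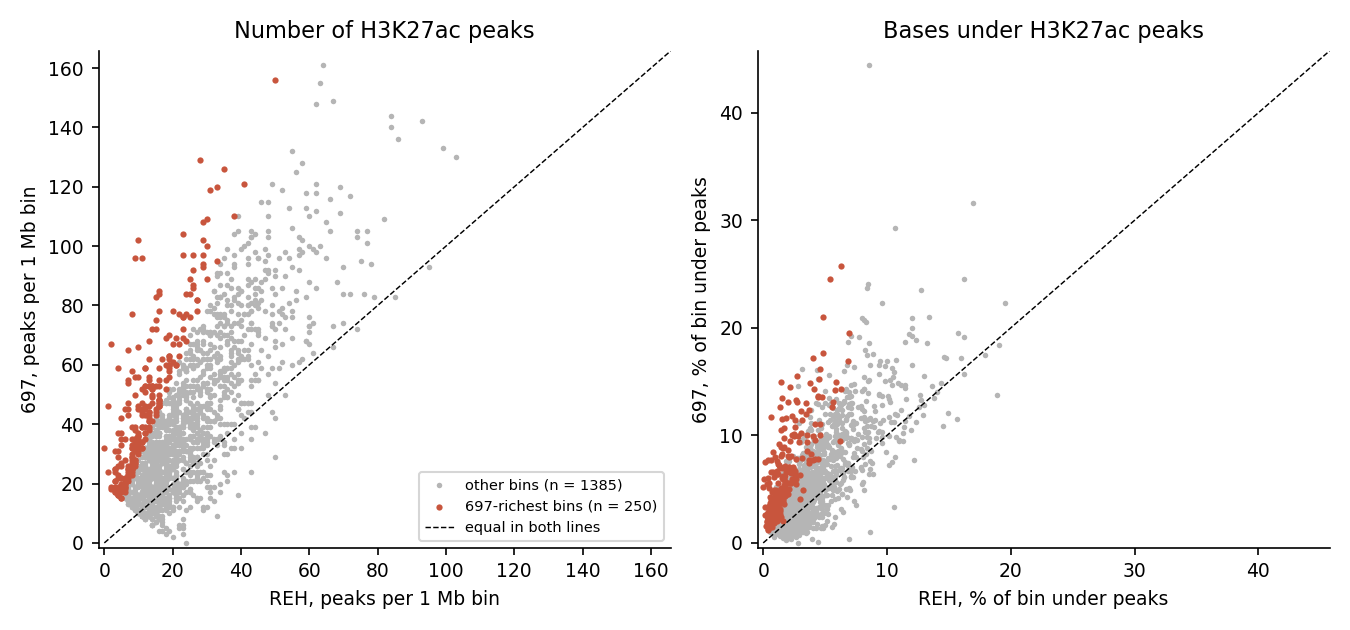
Each point is 1 autosomal bin of 1 Mb with 20 or more peaks, with REH on the x axis and 697 on the y axis, as number of peaks (left) and as percent of the bin under peaks (right). Red points are the 250 bins with the lowest REH share, grey points the other 1385 bins, and the dashed line marks equal values. The red points lie above the line in both panels, by construction in the left one.

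The bases under peaks differed between the lines in the same direction as the peak counts. In the 697-richest bins 16.5 Mb lay under 697 peaks and 4.60 Mb under REH peaks, a ratio of 3.59, against 79 Mb and 56.4 Mb, a ratio of 1.4, in the other bins. Per bin, 697 peaks covered a median of 5.54% of the sequence (lowest 1.23%, highest 25.8%) and REH peaks 1.42% (lowest 0%, highest 6.91%). In the other bins these medians were 4.35% and 3.21%. All 250 bins had at least 2 times as many 697 as REH peaks, which over all 1635 bins holds for 38.5%. At least 2 times as many bases lay under 697 peaks in 239 of the 250, against 31.1% over all bins, and the remaining 11 had ratios between 1.30 and 1.99. None had fewer bases under 697 than under REH peaks, which was the case in 22.2% of all bins. Since the rule used the same contrast, nothing is read from these counts.

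For a single bin, the count of peaks limits how well its share is known. The 95% interval of the share lay wholly below the pooled 36.1% in 162 of the 250 bins and reached it in the other 88, while over all bins it lay wholly below in 11.1%. The chosen bins were spread over all peak densities. They made up 16.7% of the 246 bins with 20 to 29 peaks, 15% of the 448 bins with 30 to 49, 17.7% of the 457 bins with 50 to 79, 14.5% of the 296 bins with 80 to 119 and 9.57% of the 188 bins with 120 to 235. The standard deviation of the share among bins was 17.2 percentage points in the sparsest class and 7.17 in the densest.

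The lowest share was found on 3p at chr3:65000001-66000000, where 697 had 32 peaks over 52390 bp and REH had none. A share of up to 10.7% remains within the interval of that count. On 1p, chr1:30000001-31000000 held 46 peaks in 697 and 1 in REH (share 2.13%, 0.377 to 11.1), with 59809 bp against 762 bp under peaks, a ratio of 78.5. On 9p, chr9:16000001-17000000 held 67 peaks in 697 and 2 in REH (2.90%, 0.799 to 9.97), with 74816 bp against 1677 bp. In these 3 bins next to no sequence lay under called REH peaks, while 697 had 32 to 67 peaks, against a median of 34 in the other bins.

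In the next bins REH had somewhat more peaks. The bin chr15:48000001-49000000 on 15q had 24 peaks in 697 and 1 in REH (4%). The bin chr1:7000001-8000000 on 1p had 59 and 4 (6.35%), and its 697 peaks covered 76917 bp against 3809 bp in REH. On 4p, chr4:24000001-25000000 had 31 and 3 (8.82%), with a longest 697 peak of 11644 bp. The sparsest of the 10 was chr5:152000001-153000000 on 5q, with 19 and 2 (9.52%).

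The remaining 3 of the 10 lowest were on chromosome 2 and were rich in peaks. On 2q, chr2:235000001-236000000 had 96 peaks in 697 and 9 in REH (8.57%), and the adjacent chr2:236000001-237000000 had 77 and 8 (9.41%). On 2p, chr2:28000001-29000000 had 102 and 10 (8.93%). Between 116816 and 149482 bp lay under 697 peaks in each of these bins, and between 5987 and 15219 bp under REH peaks. In all, 12 bins had a share under 10%, 86 a share under 20% and 164 a share of 20% or more.

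At the edge of the rule, the last bins inside were chr13:111000001-112000000 with 60 peaks in 697 and 21 in REH (25.9%), chr7:17000001-18000000 with 17 and 6 (26.1%) and chr11:119000001-120000000 with 68 and 24 (26.1%). Just outside were chr12:27000001-28000000, also with 68 and 24 and left out by chromosome order alone, chr14:100000001-101000000 with 110 and 39 (26.2%) and chr7:147000001-148000000 with 31 and 11 (26.2%). The values run on without a step across the edge, so the number of 250 is a choice and not a boundary in the data.

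When adjacent bins were joined, the 250 bins formed 204 stretches. Of these, 167 were single bins, 30 held 2 bins, 6 held 3 bins and 1 held 5 bins. Among 368 bins of at least 20 peaks that lay next to a 697-richest bin, counted once for each side, 92 were 697-richest themselves (25%), while 15.3% of all bins were. At a distance of 2 Mb it was 15.4%, at 3 Mb 18.8%, at 5 Mb 15.7%, at 10 Mb 22.4% and at 20 Mb 13.9%. Adjacent bins that were not chosen had a median share of 35.3%, and all bins that were not chosen had 38.6%. Across 1224 pairs of adjacent bins the shares were weakly related (Spearman rho 0.243), and adjacent bins share a chromosome and a cell line. Most of the 697-richest bins thus stood alone at this scale. Choosing 15.3% of the bins, and leaving out those under 20 peaks, itself favours single bins, so nothing is read from this.

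The longest stretch was on 1q at chr1:201000001-206000000, where 5 adjacent bins held 586 peaks in 697 and 162 in REH (21.7%, 18.9 to 24.8). From the first to the last bin 697 had 156, 92, 120, 129 and 89 peaks, and REH had 50, 26, 33, 28 and 25. Both lines had peaks in all 5 bins, and in every bin 697 had at least 3 peaks for each REH peak. The 697 peaks covered 20.1% of the 5 Mb and the REH peaks 4.73%, a ratio of 4.25. Of the 586 peaks in 697, 461 had no REH peak over them. The overlapped part was 21.3%, near the 20.1% of all 697-richest bins, while over all 1635 bins it was 38.3%. The first bin of the stretch had both the highest number of 697 peaks and the highest 697 coverage (25.8%) among all 250.

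The longest 697 peak of this stretch ran from 205883375 to 205903661 (20287 bp), and 2 REH peaks lay over 16.5% of it. The longest REH peak, from 204481578 to 204492087 (10510 bp), had 697 peaks over 74.2% of its length. The longest 697 peak without any REH peak measured 9590 bp, from 201063300 to 201072889. The bin after the stretch, chr1:206000001-207000000, had 94 peaks in 697 and 34 in REH (26.6%) and missed the edge of the rule narrowly. It was followed by a further stretch of 3 bins.

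This further stretch on 1q, chr1:207000001-210000000, was sparser, with 135 peaks in 697 and 25 in REH (15.6%, 10.8 to 22) and 5.43 times as many bases under 697 peaks. Its longest 697 peak, from 209816265 to 209824772 (8508 bp), lay 104763 bp from the nearest REH peak. Its longest REH peak, from 207092925 to 207099152 (6228 bp), was covered to 92.5% by 697 peaks.

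On 1p, chr1:47000001-50000000 held 128 peaks in 697 and 30 in REH (19%), with 6.31 times as many bases under 697 peaks. The edge of this stretch was sharp: in its last bin 697 had 55 peaks and REH 13, and in the next bin, chr1:50000001-51000000, 697 had 6 and REH 14. Its longest 697 peak measured 13752 bp (49080328 to 49094079), with REH peaks over 19.7% of it, and the longest 697 peak without REH overlap was close by, from 49117268 to 49128524 (11257 bp), 27619 bp from the nearest REH peak. The longest REH peak was shorter, with 2760 bp (49258254 to 49261013), and lay wholly under a 697 peak.

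Among the stretches of 3 or more bins, the lowest share was on 2q at chr2:235000001-238000000, with 196 peaks in 697 and 24 in REH (10.9%, 7.44 to 15.7) and 292980 bp against 33554 bp under peaks, a ratio of 8.73. A REH peak lay over 8.67% of its 697 peaks. Its longest 697 peak, from 235036523 to 235063726, measured 27204 bp, of which REH peaks covered 187 bp. The longest REH peak of the stretch, from 237474043 to 237478663 (4621 bp), had no 697 peak over it, so the longest domains of the lines were hardly shared there. The imbalance was larger in the first 2 bins, and the third held 23 peaks in 697 and 7 in REH.

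The other 3 stretches of 3 bins had shares nearer the edge. On 7p, chr7:28000001-31000000 held 157 peaks in 697 and 37 in REH (19.1%), a ratio of bases of 4.54, and 85 of the 697 peaks fell in its first bin. Its longest 697 peak measured 12025 bp (28601916 to 28613940), with REH peaks over 20.7%, and its longest REH peak 3371 bp (30472396 to 30475766), with 697 peaks over 21%. On 6p, chr6:51000001-54000000 held 137 and 41 (23%), a ratio of bases of 3.50. This stretch stood between bins with hardly any peak, since the bin before it had 9 peaks in 697 and none in REH and the bin after it 2 and 5. Its longest 697 peak was 7152 bp long (52399366 to 52406517, 20.9% under REH peaks) and its longest REH peak 4998 bp (52168750 to 52173747, 50.8% under 697 peaks).

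On 8q, chr8:142000001-145000000 held 266 peaks in 697 and 80 in REH (23.1%), with a ratio of bases of 3.25. The 697 peaks covered 13.9% of this stretch, against 5.70% of the other bins pooled. The REH peaks covered 4.29%, near the 4.08% of the other bins, and its middle bin had 9 REH peaks. Here the longest domains were shared to a large extent. The longest 697 peak, from 142401254 to 142415912 (14659 bp), was covered to 62.0% by REH peaks, and the longest REH peak, from 144478808 to 144485995 (7188 bp), to 97.5% by 697 peaks.

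**Figure D2:**
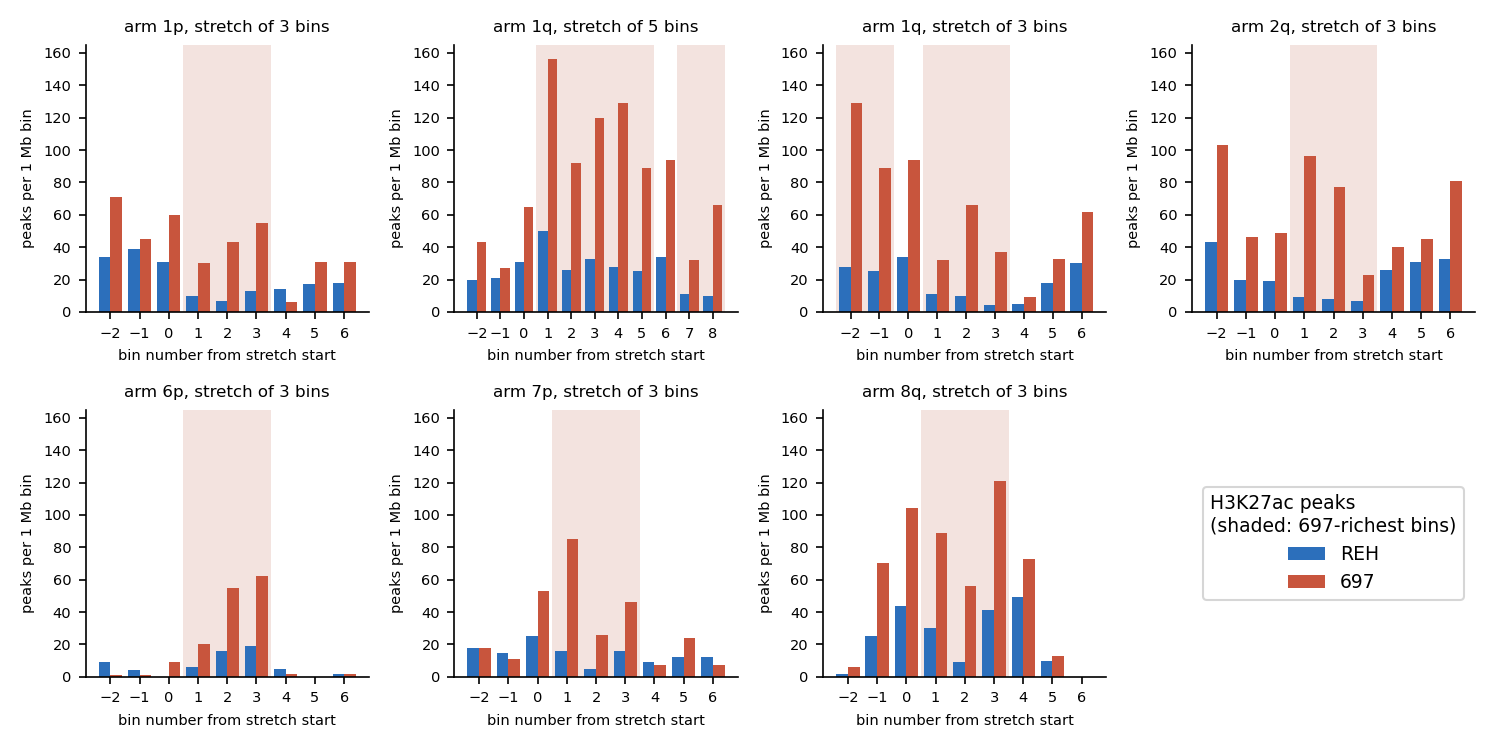
Number of H3K27ac peaks per 1 Mb bin in REH (blue) and 697 (red) for the 7 stretches of 3 or more bins, with 3 bins on either side; bin 1 is the first bin of the stretch and shaded bins are 697-richest bins. The 697 bars are higher in each shaded bin by the choice of the bins, while the flanks range from like imbalance, as beside the stretch of 5 bins on 1q, to more REH than 697 peaks, as in bin 4 beside the stretch on 1p.

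Among the stretches of 2 bins, the first 3 in chromosome order were all on 1p. At chr1:57000001-59000000 the longest 697 peak measured 4075 bp (57373593 to 57377667) and lay 133489 bp from the nearest REH peak, and the longest REH peak measured 5633 bp (57737190 to 57742822), with 697 peaks over 29.7%. At chr1:61000001-63000000 the longest peaks of 5707 bp in 697 (62238478 to 62244184) and 4619 bp in REH (62901083 to 62905701) were covered to 78.9% and 70.5% by the other line. At chr1:116000001-118000000 the longest 697 peak was 10174 bp long (117303340 to 117313513, 30.4% under REH peaks) and the longest REH peak 9146 bp (117081784 to 117090929, 80.8% under 697 peaks). A 697 peak of 8706 bp in the same stretch (116211962 to 116220667) lay 460730 bp from the nearest REH peak. Long 697 domains in these stretches thus ranged from fully separate to mostly shared.

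The 697-richest bins lay on 21 of 22 autosomes and on 37 of 39 chromosome arms. Chromosomes 1, 2 and 3 together held 84 of them among 412 bins of at least 20 peaks, and chromosomes 16, 17, 19 and 21 held 9 among 198. Over all bins it was 15.3%. These groups of chromosomes were formed after the values were seen. Chromosomes 9 (22.2%), 11 (21.1%) and 13 (22%) had higher percents than chromosomes 2 (18.1%) and 3 (18.7%). By arm, the highest percents were on 11p with 9 of 30 bins (30%, 16.7 to 47.9), on 1q with 20 of 75 (26.7%, 18 to 37.6) and on 3p with 14 of 54 (25.9%, 16.1 to 38.9). Among the 39 intervals, those of 11p, 1q and 3p lay wholly above the 15.3% of all arms, and those of 17q with 2 of 50 bins (4%, 1.10 to 13.5) and 19q with 0 of 26 (0 to 12.9) lay wholly below. The intervals treat neighbouring bins as independent, which they are not. No 697-richest bin was found among the 21 bins of 21q either.

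The arms of 1 chromosome could differ in this percent. On chromosome 3, 3p had 25.9% and 3q 11.3% (6 of 53), and on chromosome 7, 7p had 23.1% (9 of 39) and 7q 7.55% (4 of 53), in both cases with intervals that overlap. On chromosome 1 both arms were above the average, with 20.7% on 1p (19 of 92). By whole chromosome, the highest percents were on chromosome 1 (23.4%, 39 of 167), chromosome 9 (22.2%, 16 of 72) and chromosome 13 (22%, 11 of 50). Chromosome 19, the autosome with the most genes per megabase (25.2 in GENCODE 44 on GRCh38), had 1 of 49 bins (2.04%), on 19p, and chromosome 17 had 4 of 70 (5.71%). Over the 22 autosomes, however, the percent of 697-richest bins was hardly related to genes per megabase (Spearman rho −0.09) and weakly to the median number of peaks per bin (rho −0.31), given as descriptions of chromosomes that share both libraries.

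The covered bases by arm only roughly followed the number of chosen bins. The 20 bins on 1q had 1.64 Mb under 697 peaks and 0.406 Mb under REH peaks, the 19 bins on 1p had 1.25 and 0.312 Mb, and the 12 bins on 2p and the 13 bins on 2q had 0.910 and 0.908 Mb under 697 peaks, against 0.247 and 0.199 Mb under REH peaks. The 14 bins on 3p had less than those of 2p or 2q, with 0.834 Mb under 697 peaks. Likewise, the 12 bins on 9q had 0.642 Mb and the 8 bins on 8q 0.772 Mb. The ratio of bases in the chosen bins lay between 2.25 on 20q (4 bins) and 9.97 on 10p (2 bins). On arms with 9 or more chosen bins it ranged from 2.88 on 13q to 4.56 on 2q. These ratios are pooled over bins that all passed the same upper limit of the share, so nothing is read from their likeness. Among single chosen bins with REH peaks the ratio ranged from 1.30 to 78.5.

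**Figure D3:**
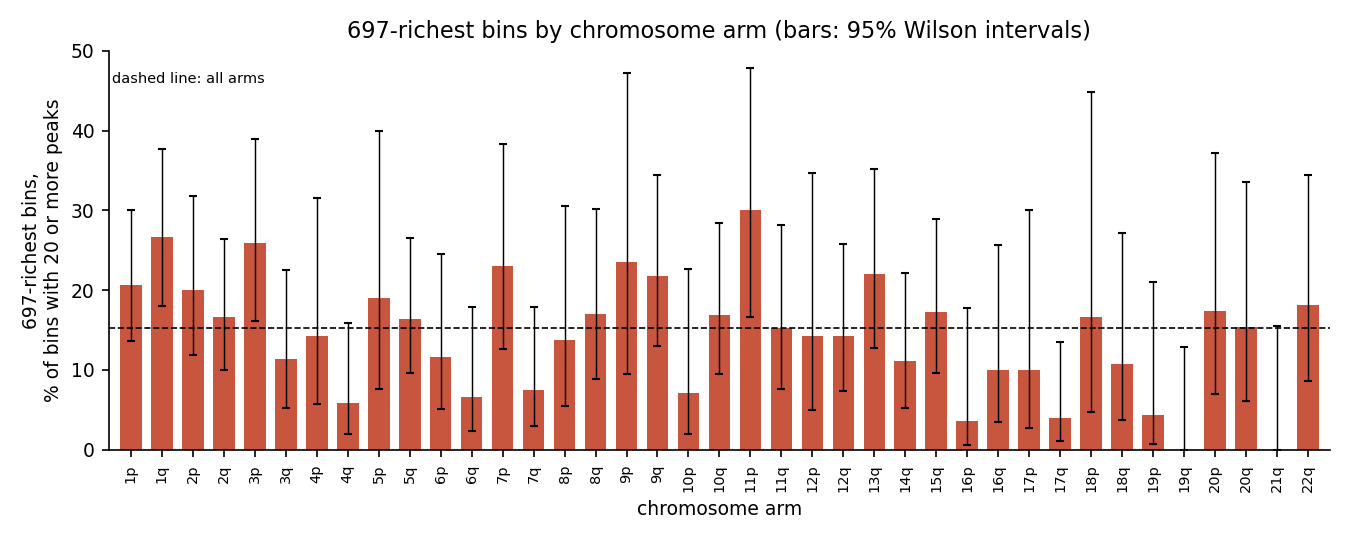
Percent of the bins with 20 or more peaks on each of 39 chromosome arms that are 697-richest bins; error bars are 95% Wilson intervals for counting error and the dashed line is the 15.3% over all arms. The bars of 11p, 1q and 3p exceed 25%, and 19q and 21q have no such bin.

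Most 697 peaks in the 697-richest bins had no counterpart in REH. A REH peak overlapped 2455 of the 12232 peaks by at least 1 bp (20.1%, 19.4 to 20.8), against 42.2% (41.8 to 42.7) in the other bins. Conversely, 2490 of the 3193 REH peaks (78.0%, 76.5 to 79.4) had a 697 peak over them, against 66.3% in the other bins. What REH had in these bins was thus largely shared with 697, and 697 had 9777 further peaks. The latter held 62.4% of the bases under 697 peaks there and 36.6% in the other bins. In the 250 bins with the highest REH share, for comparison, overlap was found for 45.8% of the peaks in REH and 61.3% of those in 697.

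The 697 peaks without REH overlap were short, with a median of 730 bp against 1780 bp for those with overlap. The corresponding medians in the other bins were 647 and 1519 bp. Long peaks without overlap were present as well. Of 400 peaks of 5000 bp or more in 697, 132 had no REH peak over them, compared with 169 of 1767 in the other bins, and of 53 peaks of 10000 bp or more it was 9, compared with 13 of 270. In REH, 92 peaks reached 5000 bp in the 697-richest bins and 2 of these had no 697 peak over them. In the other bins it was 80 of 1286, so long REH peaks were mostly overlapped in both sets. The longest peak of all 250 bins measured 41946 bp in 697 and 17849 bp in REH.

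The peaks of 697 as a whole had a similar length in these bins and elsewhere. Their median length was 841 bp, against 878 bp in the other bins, and that of REH was 997 bp, against 1087 bp. Where exactly 1 peak of each line overlapped, however, the 697 peak was the longer one in 1550 of 2160 pairs (71.8%, 69.8 to 73.6), compared with 53.5% of 22209 pairs in the other bins. The median lengths in these pairs were 1747 bp in 697 and 1111 bp in REH, and 1472 and 1354 bp in the other bins, and the median ratio of lengths was 1.36 and 1.04. These lengths come from the same peak lists that chose the bins, so they describe the shared peaks and are no separate evidence.

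**Figure D4:**
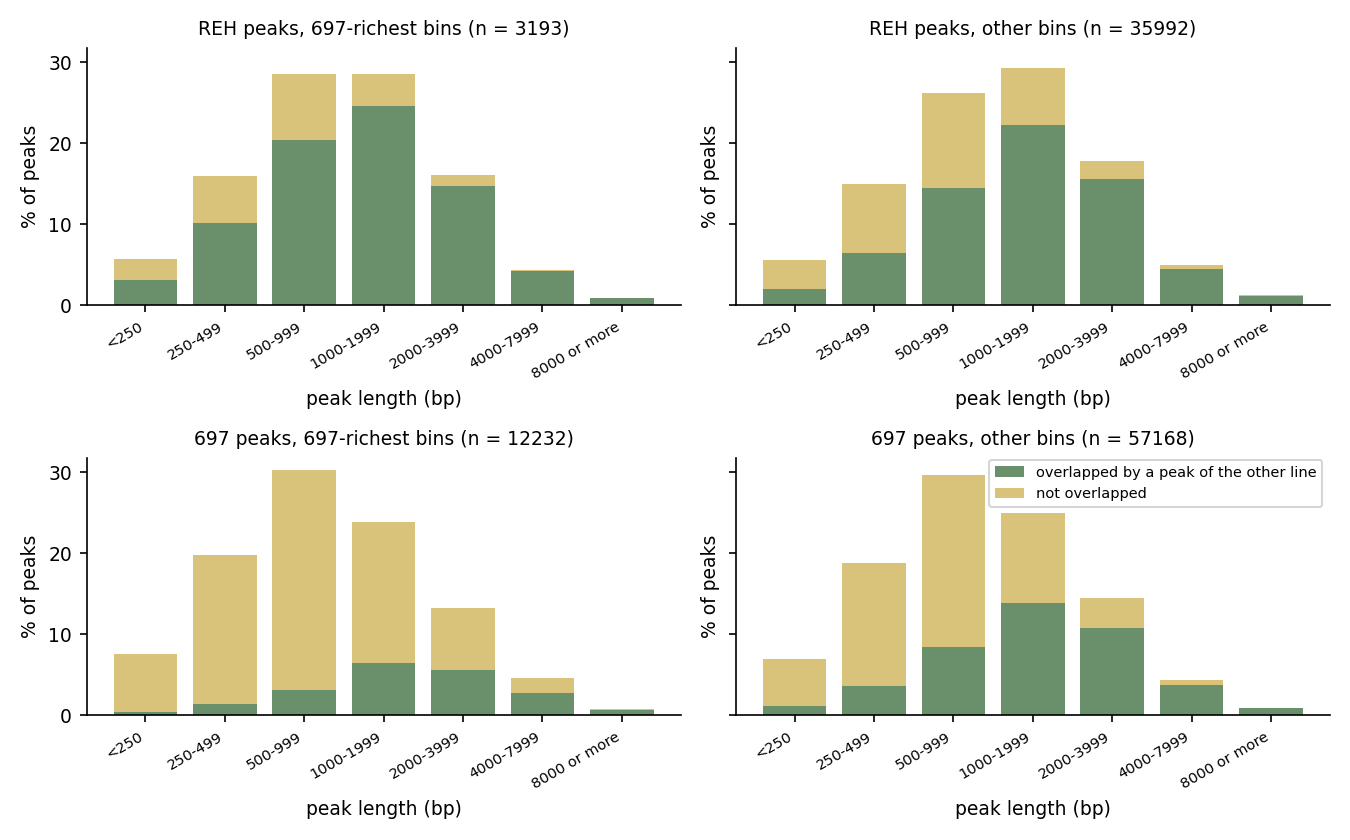
Percent of peaks (y axis) by length in bp (x axis) for REH (top) and 697 (bottom) in the 697-richest bins (left) and the other bins (right); green parts are peaks overlapped by a peak of the other line by at least 1 bp, and yellow parts are peaks without overlap. In 697 the yellow part is larger on the left in each length class, and in REH it is smaller.

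The additional 697 peaks stood in runs. Between a REH peak and the next one along the chromosome there is an interval with no REH peak, and of the 697 peaks in the 697-richest bins 7071 (57.8%, 56.9 to 58.7) lay wholly within an interval that held 5 or more of them, against 21.2% in the other bins. Intervals with 10 or more held 34.9% and 6.02%. The most 697 peaks of 1 such interval within a single bin had a median of 12 (interquartile range 9 to 17) in the 697-richest bins and 5 (3 to 8) in the others. A run of at least 10 occurred in 177 of the 250 bins (70.8%) and in 14.5% of the other bins with a 697 peak. The median gap between neighbouring 697 peaks of a bin was 4834 bp, compared with 5867 bp in the other bins, and between neighbouring REH peaks 21976.5 bp, compared with 11872 bp. A 697 peak without overlap lay at a median of 20200 bp from the nearest REH peak in the 697-richest bins and of 8700 bp in the others. Bins chosen for few REH peaks and many 697 peaks favour long intervals and long runs, so these values describe the arrangement of the peaks and are no separate evidence.

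Intervals with more 697 peaks more often had a peak in a 697-richest bin. Both the choice of the bins and counting from at least 1 peak favour this, so it is no separate evidence. Of 2476 intervals with 5 or more 697 peaks, 733 (29.6%) had at least 1 of these peaks in such a bin, and the percent was 52.0% of 552 intervals with 10 or more, 65.2% of 187 with 15 or more and 75.9% of 79 with 20 or more. The longest run comprised 54 peaks of 697 on 15q between REH peaks, at chr15:66272009-66563029. It was also compact, since the interval measured 291021 bp and 28.6% of it lay under 697 peaks, the longest of 7359 bp. The bin around it held 119 peaks in 697 and 31 in REH, so the share of the whole bin (20.7%) was ordinary among the 250, while 54 of the 119 peaks stood in 1 run without REH.

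Runs of more than 40 peaks were mostly looser. On 1p, chr1:6846519-7740133 held 53 peaks of 697 over 893615 bp, 43 of them in the 697-richest bin at 7 to 8 Mb. On 1q, chr1:208260249-209161988 held 52 over 901740 bp, within the stretch of 3 bins on that arm. Runs of 45 were found on 9p at chr9:16350248-17075222 and on 11p at chr11:35743981-36310359. Runs of 44 were found on 10q at chr10:123069998-123623865 and on 3p at chr3:64009185-66271483, the latter spread over 2262299 bp with 2.93% under 697 peaks and containing the bin without REH peaks. On 2p, chr2:28183312-28612933 held 43, and on 5q, chr5:132457149-133182372 held 42. The run of 41 at chr3:10433027-11314097 on 3p lay in bins that the rule did not choose.

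**Figure D5:**
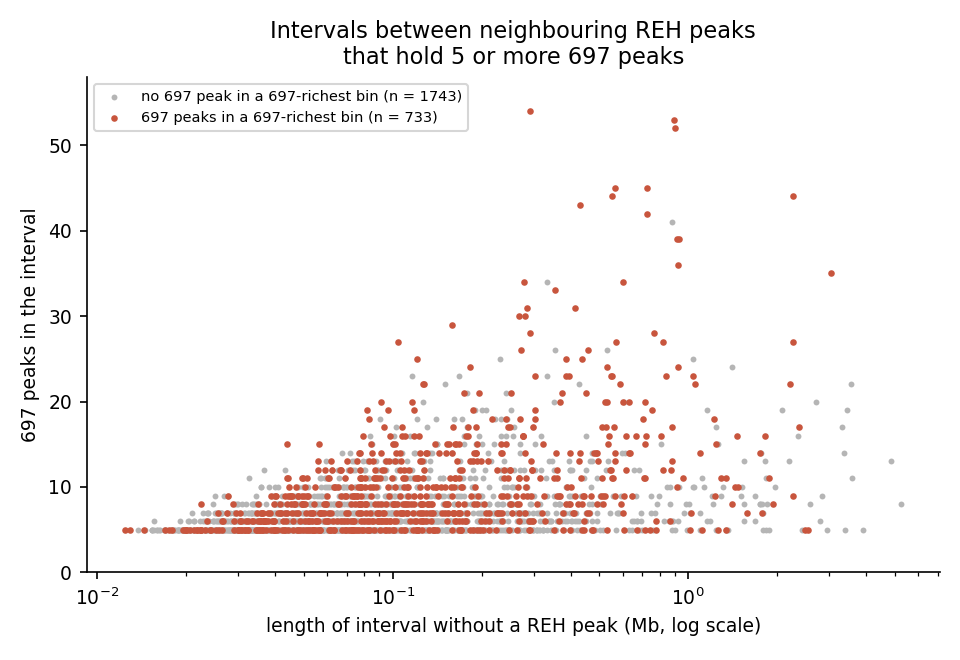
Each point is an interval between neighbouring REH peaks that holds 5 or more 697 peaks, with its length in Mb on a log scale (x axis) and its number of 697 peaks (y axis); red points are the 733 intervals with at least 1 of these peaks in a 697-richest bin, grey points the other intervals. The 9 intervals with the most 697 peaks are red and hold 42 to 54, and the tenth, grey, holds 41.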

How the data were processed

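The authors sequenced 1 H3K27ac ChIP library and 1 input library each of REH and 697. Submitters' notes name Bowtie2, MACS2 and hg19, while the methods name Bowtie and an earlier MACS. The deposited headers give MACS 2.1.0.20150731 in broad mode against input, with q-value cutoffs of 0.05 and 0.1 and 65241657 (REH) and 68911420 (697) filtered ChIP tags. The deposited columns hold peak position and length, pileup signal, fold enrichment as a ratio, and p-values and q-values as −log10. They give no tag counts per peak. The input libraries were not analysed here.

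Peaks were assigned to 1000000 bp autosomal bins by midpoint. Bases under peaks were counted in the bin they lie in, and peaks were counted as overlapped from 1 bp. Arms were split at the hg19 centromere gaps, entered by hand, which no peak overlapped. GENCODE 44 (GRCh38) was used for genes per whole chromosome only. Percents carry 95% Wilson intervals, which cover counting error only. Regions were named by rule: the 10 bins with the lowest share, the stretches of 3 or more bins, 3 bins on either side of the edge, and the longest peaks of the 10 longest stretches. Runs of 697 peaks, groups of chromosomes and the bin with the most 697 peaks were named after their values were seen. The bins and lists were chosen with earlier results of these data known. The alternatives tried were other peak filters, bin sizes, offsets and rankings. Scripts were tested on simulated data. Peaks were handled with pandas 2.3.3 and numpy 2.4.6 in Python 3.11.15, correlations computed with scipy 1.17.1 and figures drawn with matplotlib 3.10.9.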

Additional observations from a re-analysis of the deposited data

How the results depend on the processing

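Each alternative chose its bins anew, 250 of them unless another number is given. The REH share was 20.7%, the ratio of bases 3.59, the overlapped 697 peaks 20.1% and the stretches 204. In the same order, peaks with an FDR of at most 5% gave 25.8%, 2.77 and 21.2%. Peaks of at least 1000 bp gave 25.4%, 3.05 and 27.8%, and equal numbers of peaks 32.4%, 2.90 and 32.3%. For equal numbers all REH peaks of any length were kept, and only the 697 list was cut to its longest peaks. Such filters also change the pooled REH share over all bins, since with equal numbers both lists have the same size. These shares are therefore not to be read against the pooled 36.1% of the unfiltered lists. Merging peaks within 1000 bp gave 21.8%, 3.69 and 21.2%, a minimum of 30 peaks 21.9%, 3.37 and 21.6%, and ranking by covered bases 22.5%, 3.98 and 21.5%. Bins of 500000 bp (500 bins, at least 10 peaks) gave 17.3%, 4.47, 16.9% and 385 stretches, and bins of 2000000 bp (125 bins, at least 40 peaks) 23.2%, 3.12, 22.9% and 104. Bins shifted by 500000 bp moved the ratio to 3.78. The FDR filter used the deposited q-values, which were hardly related to peak length (rho 0.083 in REH and 0.078 in 697), and whether they belong to the positions beside them was not tested. The other 11 of 38 values stayed within the interval or within 1.5 times the count, and the cause of the moves was not tested. Which bins are chosen depends on these settings: of the chosen bases, 44.8% were kept with shifted bins, 51.2% with peaks of at least 1000 bp, 63.6% at an FDR of at most 5%, 74.8% with equal numbers and 91.6% after merging. Adding the X chromosome, an alternative chosen after the data were seen, kept 99.6%. No paired analysis was possible because each cell line has 1 library and no result comes from a test.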

Other observations

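The X chromosome, which the bins above leave out, did not have the excess of 697 peaks seen on the autosomes. It held 1075 peaks in REH and 1001 in 697. Its 39 bins with 20 or more peaks had a median REH share of 52.7%, against 36.6% for the autosomal bins, and the lowest was 24.0%. With X added, 1 of its bins was among the 250 with the lowest share.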
